A study of Homo sapiens with 6 samples.

Results

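The cytosolic heat shock system was followed through the response of HepG2 cells to tamarixetin in 10 genes: the transcription factor HSF1, the HSP70 genes HSPA1A, HSPA1B and HSPA8, the HSP110 genes HSPA4 and HSPH1, the HSP90 genes HSP90AA1 and HSP90AB1, the small heat shock gene HSPB1 and the co-chaperone BAG3. They were taken by exact symbol, and all 10 members were found among the 43424 gene symbols of the count tables and among the 13198 genes tested. HepG2 is an established line of human liver cancer cells, labelled wild type. Control cultures (3 libraries, treatment given as none, with no vehicle named) were compared with cultures given 10 µM tamarixetin, a methylated quercetin, for 24 h (3 libraries). Cells were grown with 10% fetal bovine serum and the compound was added in medium with 1%; the serum of the controls in that time is not stated, and a serum difference between the groups was not tested.

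Heat shock proteins are chaperones that bind unfolded or newly made proteins. HSP70 works in cycles of ATP with J-domain partners and with exchange factors such as HSP110 and BAG3, HSP90 completes the folding of kinases and receptors, and small heat shock proteins hold unfolded chains without ATP. HSF1 is kept inactive by chaperones in unstressed cells and, once released, binds heat shock elements, which are repeats of a GAA unit in alternating orientation. HSPA1A and HSPA1B are the classic inducible HSP70 genes and HSPA8 the constitutive one; HSP90AA1 is regarded as the inducible and HSP90AB1 as the constitutive HSP90.

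The promoters show where such elements lie, and the stretches below were chosen because they hold the elements nearest to a transcription start of HSPA1A, HSPA1B, HSPA8, HSP90AA1, HSP90AB1 and HSPB1, and of HSPA6, a stress-only HSP70 described further on. Sequences are from RefSeq (GRCh38.p14), read 5′ to 3′ on the strand of the gene, with the elements in capitals. HSPA8 and HSP90AA1 are shown as the site alone because it lies in an annotated exon.
HSPA1A, chr6:31815407-31815463, plus strand: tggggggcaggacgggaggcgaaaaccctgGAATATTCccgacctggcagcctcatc
HSPA1B, chr6:31827603-31827670, plus strand: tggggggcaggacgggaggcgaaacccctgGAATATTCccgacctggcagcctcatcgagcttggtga
HSPA8, chr11:123062176-123062194, minus strand: cccTTCTGGAAGGTTCtaa
HSP90AA1, chr14:102087104-102087133, minus strand: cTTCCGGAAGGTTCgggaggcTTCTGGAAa
HSP90AB1, chr6:44247801-44247865, plus strand: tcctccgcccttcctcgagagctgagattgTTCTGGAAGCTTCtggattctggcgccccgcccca
HSPB1, chr7:76302461-76302528, plus strand: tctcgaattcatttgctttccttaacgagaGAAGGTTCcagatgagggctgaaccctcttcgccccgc
HSPA6, chr1:161524436-161524508, plus strand: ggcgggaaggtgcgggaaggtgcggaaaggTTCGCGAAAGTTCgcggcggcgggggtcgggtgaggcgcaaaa

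Promoters of 300 bases (250 before a start, 50 after) were held for 9 of the 10 members. An element of 2 units was searched as GAANNTTC or TTCNNGAA, which read the same on both strands, and an element of 3 units as GAANNTTCNNGAA or TTCNNGAANNTTC, each the reverse complement of the other; every 3-unit match contains 2-unit matches. Of all 35116 promoters, 13.5% held a 2-unit and 0.49% a 3-unit element. The 3-unit element was present at HSPA8 (2 copies), at 1 of 2 starts of HSP90AA1 (1 copy) and at 1 of 3 starts of HSP90AB1 (2 copies). HSPA1A and HSPA1B each held a single 2-unit element with the same letters, at -106 to -99 and -105 to -98 from the start, and HSPB1 held 1 at -182 to -175. With 1 mismatch allowed, a search added after the exact one, these 3 promoters also held a 3-unit element, as did 6.24% of all promoters. HSPA4, HSPH1 and BAG3 held neither exact element in this window.

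Between 11980585 and 16168855 counts were available per library. All 9 hepatocyte markers checked (among them ALB, APOA1 and TF) were detected, summing to between 16000 and 16600 CPM (counts scaled to library sizes adjusted by TMM factors) in control and between 9220 and 9480 CPM in tamarixetin libraries. The 5 leukocyte markers summed to between 752 and 1000 CPM, nearly all of it from LYZ, while PTPRC stayed at 0.114 CPM or less on average and CD3E at 0; endothelial markers did not exceed 1.90 CPM, red cell markers 2.32 CPM and fibroblast markers 35.3 CPM. The fall of the hepatocyte markers moves with the treatment, and its part in the chaperone values was not tested. In such bulk libraries, fewer expressing cells and less RNA per cell cannot be told apart.

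With tamarixetin, 9 of the members rose and 1, HSPB1, fell. Genes were tested by quasi-likelihood in edgeR, with p-values adjusted by Benjamini-Hochberg over all genes and a threshold of 0.05, by which 43.7% of all genes changed, 22.4% upward and 21.3% downward. The groups did not overlap in any member, as in 50.5% of all genes. The median log2 fold change of the members was 0.47, against 0.0004 over all genes. The rises were unequal: 5 members (HSPA1A, HSPH1, HSPA1B, BAG3 and HSPA8) rose at least 1.5-fold, which 7.27% of all genes did, while HSPA4 and both HSP90 genes rose by less than 1.1-fold by their fitted values of 1.08, 1.05 and 1.06.

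**Figure D1:**
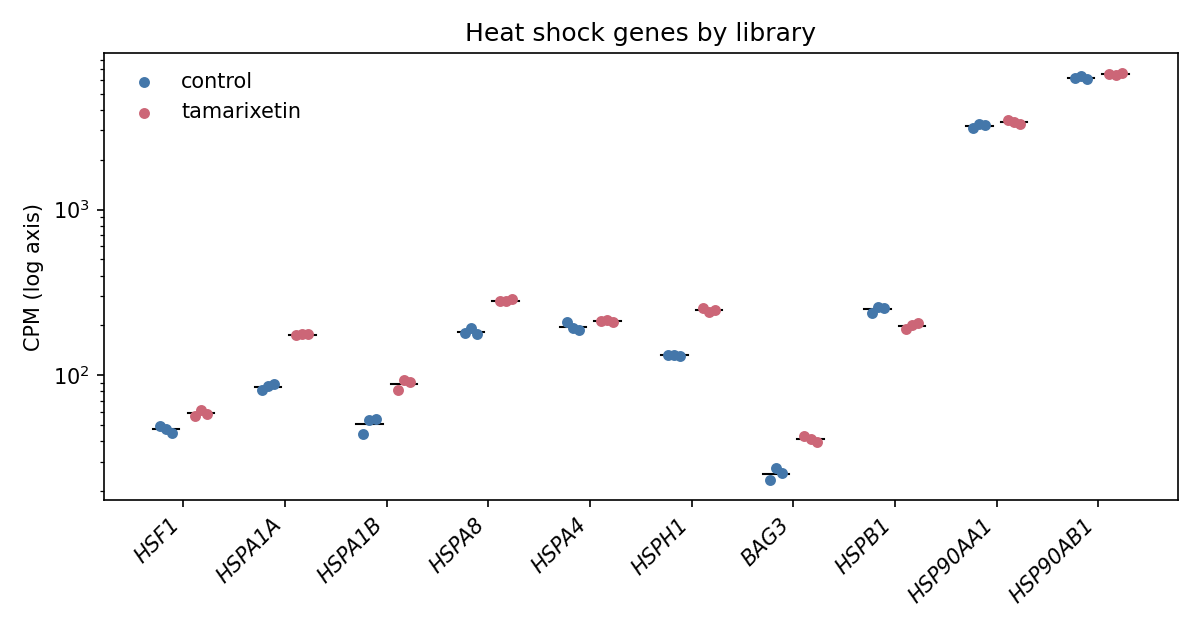
Level of each of the 10 genes in CPM (log axis) in the 3 control (blue) and 3 tamarixetin (red) libraries; points are libraries and short lines group means. HSP90AA1 and HSP90AB1 lie at 3093 CPM or more in every library, and the tamarixetin points lie above the controls in every gene but HSPB1.

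HSF1, the transcription factor, which lies on chromosome 8 (144291604 to 144314720), stood at 49.6, 47.4 and 45.2 CPM in the control libraries and at 56.9, 61.7 and 58.6 CPM with tamarixetin. Each treated library was above each control library, by a modest step. The log2 fold change was 0.32 (SE 0.068, adjusted p = 4.88e-05 in edgeR), and the call was lost where a minimum fold of 1.2 was built into the test (adjusted p = 0.274), a setting that 5 members and 19.4% of all genes passed. The last 300 bases of the HSF1 transcript run against DGAT1 on the other strand over 139 bases. DGAT1, a triglyceride synthesis enzyme, fell by 0.85 on the log2 scale, from 59.0 ± 7.85 to 32.8 ± 1.37 CPM (SD, n = 3 each). The strand setting of the counting is not given in the sources used here, and without strand the reads of that stretch cannot be told apart.

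Inducible HSP70 showed the largest change of the set. HSPA1A (chromosome 6, 31815543 to 31817942) was at 81.3, 86.4 and 88.5 CPM in control and at 174.5, 177.8 and 176.5 CPM in tamarixetin libraries. The treated libraries lay within 3.36 CPM of each other and lay at about 2.06 times the controls. Its log2 fold change was 1.05 (SE 0.048, adjusted p = 2.39e-36 in edgeR), and 3.26% of all genes had a higher one. HSPA1B, its neighbour (31827738 to 31830254), was lower throughout, at 44.4, 53.9 and 54.4 CPM in control and 81.3, 93.7 and 91.0 CPM with tamarixetin. Control replicate 1 and tamarixetin replicate 1 were the lowest libraries of their groups for this gene, yet the groups stayed apart, and the log2 fold change was 0.80 (SE 0.064, adjusted p = 3.64e-20 in edgeR).

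The coding parts of these neighbours are near-identical, so that reads could be shared between them. Their last 300 transcript bases, the part that 3′ libraries are made to sample, were aligned to transcripts of other genes. Neither matched one over 100 bases or more at 95% identity. Shorter matches and reads from further upstream were not checked, so the sharing of reads was not measured. Summed into 1 gene, HSPA1A and HSPA1B rose from 136 ± 9.25 to 265 ± 8.21 CPM (SD, n = 3 each). The log2 fold change of the sum was 0.96 (SE 0.044).

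Constitutive HSP70 also rose. HSPA8 (chromosome 11, 123057489 to 123062462), the everyday HSP70 that also uncoats clathrin vesicles, was at 179.5, 192.0 and 177.0 CPM in control and at 279.7, 280.3 and 287.4 CPM in tamarixetin libraries. All treated libraries were at least 87.7 CPM above the highest control. The log2 fold change was 0.63 (SE 0.041, adjusted p = 8.20e-26 in edgeR), and the gain of 99.6 CPM was below the 129 CPM gained by HSPA1A and HSPA1B together.

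Within each library, the counts of HSPA1A and HSPA1B together were 0.700, 0.731 and 0.807 of those of HSPA8 in control and 0.914, 0.969 and 0.931 with tamarixetin. The inducible pair thus gained on the constitutive gene in every treated library, by 0.33 on the log2 scale (SE 0.065). The exact two-sided permutation test gave p = 0.1 (n = 3 per group), the smallest that 3 against 3 allows, and 0.113 after adjustment over the 9 ratios computed, so that no ratio could pass 0.05. The ratio of HSPA1A to HSPA1B moved from 1.83, 1.60 and 1.63 to 2.15, 1.90 and 1.94 (0.24 on the log2 scale, SE 0.081, exact permutation p = 0.1).

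The HSP110 genes, which act as nucleotide exchange factors of HSP70, parted. HSPH1 (chromosome 13, 31134973 to 31162388), whose product is HSP105, stood at 133.6, 132.2 and 130.0 CPM in control and at 256.6, 240.7 and 247.2 CPM with tamarixetin. Its control libraries had the smallest spread relative to their mean of the 10 members, and the log2 fold change was 0.91 (SE 0.043, adjusted p = 1.16e-35 in edgeR), close in size to that of HSPA1A. HSPA4 (chromosome 5, 133052013 to 133106449), which encodes APG-2, was at 208.6, 194.4 and 186.7 CPM in control and at 211.7, 214.5 and 211.2 CPM with tamarixetin. Control replicate 1 lay 2.64 CPM under the lowest treated library, and the log2 fold change was 0.11 (SE 0.042, adjusted p = 0.024 in edgeR).

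HSPA4 lost its call without control replicate 2 (edgeR adjusted p = 0.0865) or 3 (0.211) or tamarixetin replicate 2 (0.079), with upper quartile scaling (0.131), in DESeq2 (0.0515) and with the minimum fold of 1.2 (1). The count of HSPH1 was 0.640, 0.680 and 0.696 of that of HSPA4 in control and 1.21, 1.12 and 1.17 of it with tamarixetin. The order of this pair therefore turned over in all 3 treated libraries, with a difference of 0.80 on the log2 scale (SE 0.048; exact two-sided permutation p = 0.1, n = 3 per group).

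BAG3 (chromosome 10, 119651380 to 119677819), an exchange factor that hands HSP70 clients to autophagy, had the lowest level of the members. It stood at 23.4, 27.5 and 25.6 CPM in control and at 43.4, 41.3 and 39.4 CPM with tamarixetin. The lowest treated library was 11.9 CPM above the highest control, and the log2 fold change was 0.70 (SE 0.084, adjusted p = 6.69e-12 in edgeR).

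The HSP90 genes carried most of the chaperone transcripts and had the smallest fold changes of the set. HSP90AB1 (chromosome 6, 44246194 to 44253883) was at 6176, 6375 and 6137 CPM in control, rank 8 of all genes tested, and at 6593, 6511 and 6625 CPM with tamarixetin. HSP90AA1 (chromosome 14, 102080742 to 102139749) was at 3093, 3293 and 3231 CPM, rank 25, and at 3449, 3355 and 3298 CPM. For HSP90AA1, the highest control and the lowest treated library were 5.57 CPM apart. The body of HSP90AA1 overlaps WDR20 on the other strand, while its last 300 bases aligned to no transcript of another gene at the limits used above. On their own strand, HSPA1B, HSPA4, HSPA8 and HSPA6 overlap other annotated genes, and the effect on their counts was not tested. The log2 fold changes were 0.078 for HSP90AB1 (SE 0.026, adjusted p = 0.00847) and 0.071 for HSP90AA1 (SE 0.028, adjusted p = 0.0307, both edgeR).

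Both calls were lost with upper quartile scaling (edgeR adjusted p = 0.161 for HSP90AB1 and 0.302 for HSP90AA1), which moved the median of all genes by -0.035, and with the minimum fold of 1.2. HSP90AA1 also lost it without control replicate 1 (edgeR adjusted p = 0.25), tamarixetin replicate 1 (0.151) or tamarixetin replicate 2 (0.0639), and in DESeq2 (0.0544). The ratio of HSP90AA1 to HSP90AB1, inducible to constitutive, was 0.501, 0.516 and 0.526 in control and 0.523, 0.515 and 0.498 with tamarixetin. The groups overlapped in this ratio (difference -0.007 on the log2 scale, SE 0.030, exact two-sided permutation p = 0.7, n = 3 per group).

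**Figure D2:**
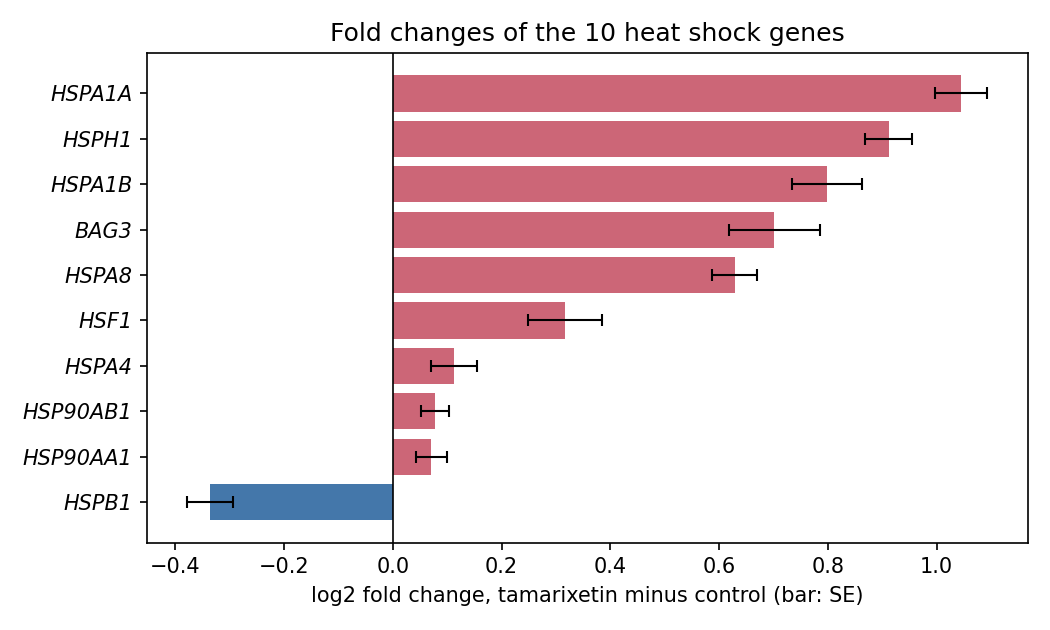
Log2 fold change of each gene, tamarixetin minus control, from the edgeR fit over all genes; whiskers are standard errors, red bars are higher and blue lower with tamarixetin. HSPA1A is at 1.05 and HSPB1 at -0.34, and the HSP90 genes lie near 0.07.

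HSPB1 (chromosome 7, 76302673 to 76304292), the small heat shock protein HSP27, went the other way. It was at 236.8, 259.2 and 256.0 CPM in control and at 189.9, 200.2 and 205.9 CPM with tamarixetin. Every treated library was below every control, and the log2 fold change was -0.34 (SE 0.042, adjusted p = 3.24e-11 in edgeR), lost with the minimum fold of 1.2 (0.0573). Its count was 1.32, 1.35 and 1.45 times that of HSPA8 in control and 0.679, 0.714 and 0.716 times with tamarixetin, a difference of -0.96 on the log2 scale (SE 0.047, exact permutation p = 0.1). The pseudogene HSPB1P1 matched HSPB1 at 97.8% identity over 178 of its last 300 bases, so that reads of that stretch can be lost or misplaced in counting. HSPB1P1 is not among the gene symbols of the count tables, so reads placed there would not be seen.

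In sum of transcripts the set grew little. A count in a 3′ library is meant to stand for about 1 transcript whatever its length, so CPM were added across genes. Duplicate reads could not be checked, since the handling of molecular identifiers is not given. The 10 members summed to 10406 ± 227 CPM in control and 11251 ± 80.4 CPM with tamarixetin (SD, n = 3 each). The HSP90 genes made up 90.7% ± 0.024 of the members' counts in control and 88.4% ± 0.18 with tamarixetin, while the other 8 genes went from 971 ± 19.2 to 1307 ± 11.96 CPM.

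**Figure D3:**
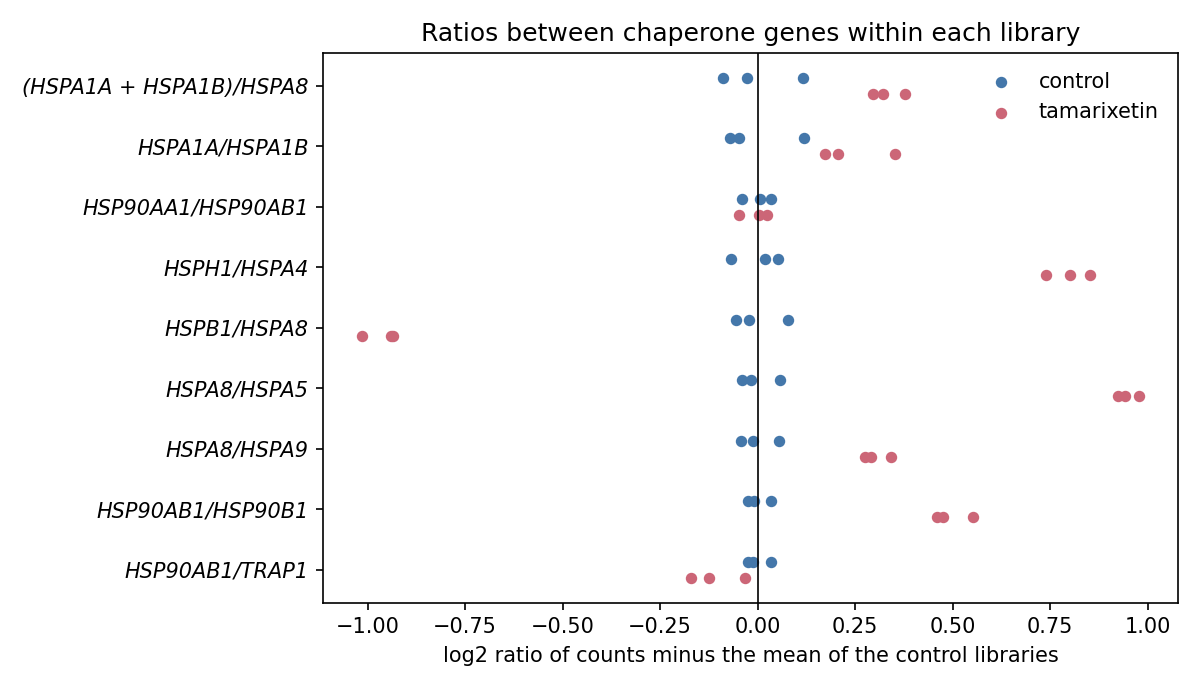
Log2 ratio of the counts of the named genes within each library, minus the mean of the control libraries; blue points are control and red points tamarixetin libraries. The groups are apart in 8 of the 9 ratios and overlap in HSP90AA1/HSP90AB1. Several ratios share a gene and are not independent, and the groups were also apart in 50.5% of all single genes.

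The paralogs in other compartments moved in both directions. HSPA5 and HSP90B1 are an HSP70 and the HSP90 of the endoplasmic reticulum. They fell by 0.32 and 0.42 on the log2 scale (adjusted p = 2.42e-15 and 5.52e-21 in edgeR). Their average levels went from 977 and 1095 CPM to 782 and 820 CPM. HSPA9 and TRAP1, the HSP70 and HSP90 of the mitochondrion, rose by 0.33 and 0.19 (edgeR adjusted p = 1.26e-10 and 8.57e-04). HSPA8 was 0.185, 0.194 and 0.182 of HSPA5 in control and 0.355, 0.360 and 0.368 of it with tamarixetin, 0.95 higher on the log2 scale (SE 0.032). Against HSPA9, HSPA8 gained 0.30 (SE 0.035), and HSP90AB1 gained 0.50 on HSP90B1 (SE 0.034) and dropped by 0.11 against TRAP1 (SE 0.045). The exact two-sided permutation p was 0.1 for each of these 4 ratios (n = 3 per group). HSPA13 and HYOU1, HSP70 relatives that also lie in the endoplasmic reticulum, were called higher. Their log2 fold changes were 0.38 and 0.11 (edgeR adjusted p = 0.00958 and 0.0486), and the groups overlapped in HSPA13. Of the 6 genes of this list, 4 were thus higher and 2 lower, where 22.4% of all genes rose and 21.3% fell. Their median was 0.15, and it was 0.19 with library size alone and 0.12 with upper quartile scaling.

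Other cytosolic HSP70 and HSP110 genes were tested in 5 of 7, with 3 called higher and none lower. The shares over all genes were 22.4% higher and 21.3% lower. The 3 include HSPA6, whose call carries no weight, as set out next. HSPA6 (chromosome 1, 161524540 to 161526894), which encodes HSP70B′ and is scarcely made without stress, had 0 counts in all 3 control libraries and 42, 22 and 25 counts with tamarixetin. It was thus seen in every treated library at a low level, 2.12 ± 0.553 CPM (SD, n = 3). That mean was 29.9 times a limit of 3 counts set for the control libraries together. The spread and counting error of the treated libraries did not enter this value, so it is not a lower bound. HSPA6 passed the filter on low counts through the treated libraries alone, so its call in edgeR is no support for the difference. The median of the 5 genes was 0.44, also with HSPA6 set at 29.9-fold. It was 0.28 where 5 CPM or more were required in 3 libraries, which fewer of them reach. The 0.44 is the value of HSPA1L (1.55 CPM in control), which was not called (edgeR adjusted p = 0.323). HSPA7, a near copy of HSPA6, had 0 counts in all 6 libraries. HSPA12A, a distant member of the family, rose from 10.8 ± 0.424 to 32.6 ± 3.27 CPM (log2 fold change 1.59, SE 0.106). HSPA4L was called higher at 0.18 (adjusted p = 0.0473 in edgeR), though its groups overlapped. HSPA14 had 0.29 and was not called (adjusted p = 0.0852 in edgeR).

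Small heat shock genes besides HSPB1 were scarce. Of 10 listed, 3 were tested, and CRYAB (alpha-B crystallin) was called higher, from 0.912 ± 0.240 to 1.84 ± 0.331 CPM (log2 fold change 1.03, SE 0.404, adjusted p = 0.0311 in edgeR). HSPB8, the partner of BAG3, and HSPB6 stood at 1.13 and 1.01 CPM in control, and neither passed (adjusted p = 0.653 and 0.835).

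Partners of HSP70 were mixed. Over all genes, 22.4% rose and 21.3% fell, and of the 14 partners tested 5 rose, 2 fell and 7 did not pass. Their median of 0.057 was 0.031 without control replicate 1, 0.088 without control replicate 3, 0.022 with upper quartile scaling and 0.092 with library size alone. STIP1, the adaptor that passes clients from HSP70 to HSP90, rose by 0.45 (SE 0.042), the J-domain protein DNAJB1 by 0.36, the mitochondrial exchange factor GRPEL1 by 0.36 and BAG2 by 0.38. The HSP70-interacting protein gene ST13 (-0.16) and BAG4 (-0.31) fell. The rise of BAG3 (0.70) was the largest of the BAG genes tested.

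Co-chaperones of HSP90 were mostly higher: of 23 tested, 13 rose, 3 fell and 7 did not pass, with a median of 0.19. Over all genes, 22.4% rose and 21.3% fell. The immunophilin FKBP4 rose by 0.70 (SE 0.063), the ATPase activator AHSA1 by 0.52 (SE 0.044) and TOMM34, a cytosolic partner in mitochondrial import, by 0.42, with STIP1. AHSA1 went from 170 to 243 CPM on average. The AHSA1 relative AHSA2P (-0.40), FKBP8 (-0.35) and the folliculin partner FNIP2 (-0.30) fell.

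Of the HSF family and the binding partners of HSF1, 9 were tested. Of these, 2 rose, 1 fell and 6 did not pass, where 22.4% of all genes rose and 21.3% fell. Their median was -0.090. That median turned to 0.080 without control replicate 1 and was -0.034 without control replicate 3 and -0.054 without tamarixetin replicate 3. HSF2, the relative that can pair with HSF1, had a log2 fold change of -0.12 (adjusted p = 0.189 in edgeR), and HSF4 and HSF5 were too low to test. The ubiquitin ligase genes FBXW7 (0.30), which acts on HSF1, and STUB1 (0.20), which acts on HSP70 clients, rose, and HSBP1L1 fell (-0.35). HSBP1, a small HSF1-binding protein, had -0.090 (adjusted p = 0.0646).

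The list of further heat shock response targets held 29 genes, all tested. Of these, 18 rose, 4 fell and 7 did not pass, with a median of 0.24, where 22.4% of all genes rose and 21.3% fell. The 18 include HSPA6, which passed the filter through the treated libraries alone. The list shares STIP1, AHSA1, FKBP4 and others with the lists above. TENT5A, a poly(A) polymerase family member, rose by 0.57 (SE 0.063), next to AHSA1, FKBP4 and STIP1. The collagen chaperone SERPINH1 (-0.30), the polyubiquitin gene UBB (-0.29), ZFAND2A (-0.28), which encodes a zinc finger protein that binds the proteasome, and ST13 fell. No list was tested as a set.

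**Figure D4:**
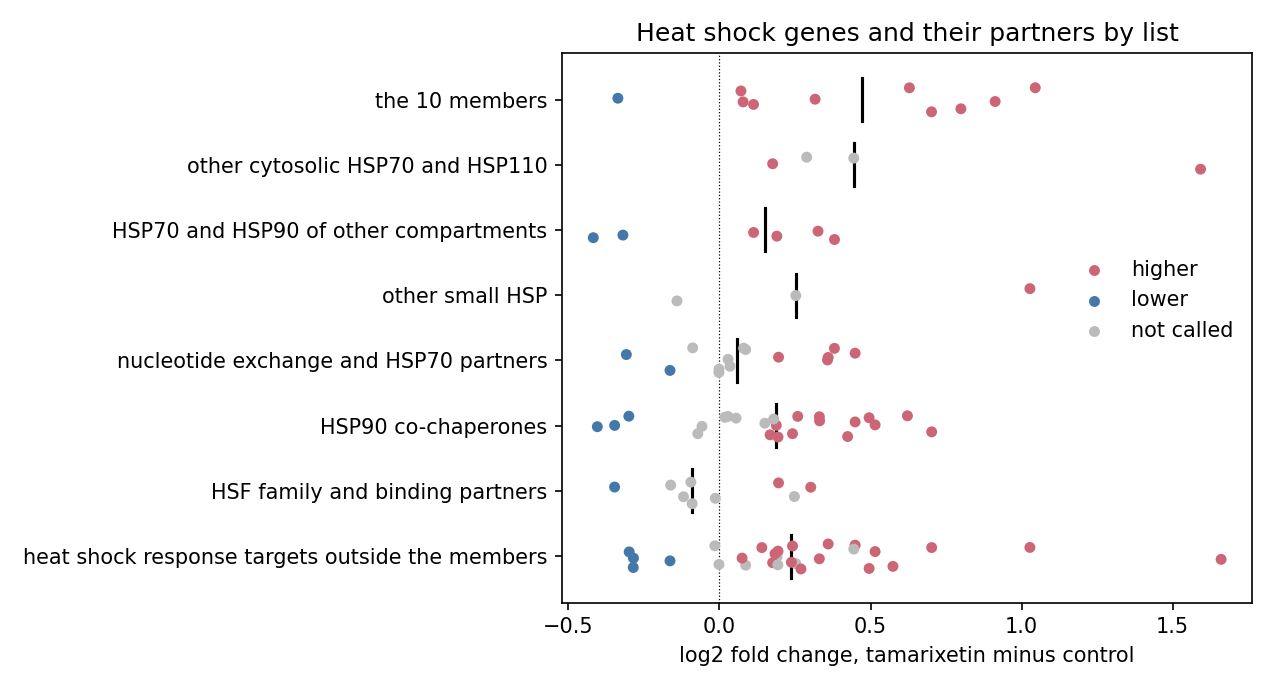
Log2 fold change, tamarixetin minus control, of each gene tested in the 10 members and 7 lists; red points were called higher, blue lower and grey not called, black lines are list medians with every tested gene, and HSPA6 is left out of the points because its controls were at 0. The members' median is 0.47 and that of HSF partners -0.090.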

How the data were processed

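RNA of 6 HepG2 cultures was counted in 3′ libraries (Lexogen QuantSeq forward kit, per the labels' protocols). The authors deposited 1 table of raw counts by symbol for each library. The tools named in the submitters' processing notes are featureCounts 2.0.6, STAR 2.7.10b and fastp 0.23.1, with the GRCh38 build. The sources used here give no annotation release, strand setting or handling of molecular identifiers. Groups and replicate numbers were taken from the sample titles, which call the samples biological replicates.

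Counts were filtered (filterByExpr), scaled by TMM and tested with edgeR 4.0.16 in R 4.3.3 with group as the only term. SEs were derived from the log2 fold change and its F value. Chi-square per gene between libraries of the same group ran from 2.35 to 3.52, above sampling noise. The common biological coefficient of variation was 4.70%. On simulated counts of this comparison (13058 genes tested), 50 genes were changed at each fold. Recovered were 62% at 1.25-fold, 76% at 1.5-fold, 82% at 2-fold and 94% at 3-fold, with 7 false calls. The changed genes were drawn at random over all levels, and genes of like level were given like spread. These rates and false calls therefore belong to that setting and do not describe the members in particular. Ratios are counts of genes within a library, compared by exact permutation. Of the 43424 symbols, 42739 were found in RefSeq's gene table (GRCh38.p14), the source of gene positions and promoters. Transcript ends were aligned with blastn 2.17.0 to GENCODE 29 transcripts. Proteins were not compared.

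The members, 7 gene lists and tests were chosen with earlier results of these data known. Named were all members, the partners in the ratios and up to 4 genes per list with the smallest p. Genes called against most of their list were named too. HSPA7, DGAT1, HSF2 and the genes named for their place in a list were added after their values were seen. HSPB1P1, which has no symbol in the count tables, was named from the alignment of transcript ends. Alternatives covered scaling, filters, the replicate number as a block, DESeq2 1.42.0, limma-voom (limma 3.58.1), stricter thresholds and leaving out each library.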

Additional observations from a re-analysis of the deposited data

How the results depend on the processing

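HSPA1A, HSPA1B, HSPA8, HSPH1 and BAG3 kept direction and call in all 17 alternatives, with log2 fold changes of 1.01 to 1.08, 0.71 to 0.86, 0.59 to 0.66, 0.88 to 0.95 and 0.64 to 0.75, and HSPA1A and HSPA1B also when summed. With a minimum fold of 1.2 in the test, HSF1 (0.32), HSPA4 (0.11), HSP90AA1 (0.071), HSP90AB1 (0.078) and HSPB1 (-0.34) were no longer called, which left 5 members higher and 0 lower, and 1319 genes higher and 1241 lower against 2954 and 2817. With upper quartile scaling HSPA4 (0.078), HSP90AA1 (0.036) and HSP90AB1 (0.043) lost their calls; in DESeq2 and at an adjusted p of 0.01 HSPA4 (0.11 in both) and HSP90AA1 (0.069 and 0.071) did. Leaving out 1 library gave HSPA4 0.071 to 0.15 and HSP90AA1 0.042 to 0.087, with calls lost as stated above, and the HSP90AA1/HSP90AB1 difference -0.027 to 0.013. With 1 library left out, the median of HSF partners ran from -0.069 to 0.080 (0.080 without control replicate 1), and it was -0.056 with library size alone, -0.13 with upper quartile scaling and -0.050 without a filter. The median of the other small heat shock genes tested (0.25) ran from 0.13 to 0.42 with 1 library left out and was 0.64 without a filter. The cause of these changes was not tested. The replicate numbers did not pair the libraries. Over genes, deviations of log2 levels from the group mean correlated at -0.0042, -0.040 and -0.022 between same-numbered libraries. Between control and tamarixetin libraries of unlike number they correlated at -0.014 to 0.038. With the number as a block, HSP90AA1 was at 0.071 with an edgeR adjusted p of 0.0508. The other 9 members then kept their calls, and 5735 genes were called against 5771. Depth limits HSPA6, CRYAB and the other genes under 3 CPM.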

Other observations

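Among genes outside the members with a 3-unit heat shock element in a promoter of the reference table, 45 were tested, of which 8 rose and 9 fell (17.8% and 20%, median log2 fold change 0.024). The 8 include HSPA6, which passed the filter on low counts through the treated libraries alone. Over all 10357 genes tested that have a promoter in the table, 22.7% rose and 21.5% fell. Genes with a 2-unit element rose in 22.7% and fell in 20% of 1411, and genes with none rose in 22.7% and fell in 21.8% of 8937. Of the 45, the chaperone partner CHORDC1 (0.50) and the noncoding RNA GAS5 (0.53) rose. The collagen chaperone SERPINH1 (-0.30) and the RNA-binding protein HNRNPA2B1 (-0.24) fell. This count was chosen after the members' values were seen, no test was made on it, and the search covers these letters in a window of 300 bases only.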
